A study of Vanessa cardui with 14 samples.

Results

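Genes that the painted lady butterfly, Vanessa cardui, used in the larval and early pupal hind wing and that were low from 5 d after pupation onward were examined across all wing samples of the study. A gene belonged to the set when all 4 larval and 72 h libraries held at least 5 FPKM (sequenced fragments relative to gene length and to the size of the library), when its larval and 72 h means were less than 4-fold apart, and when both means were at least 4 times the mean of each later hind wing stage. Of the 13876 genes in the table, 4446 passed the first condition, 3782 the first and the second, and 52 all of them, which is 1.37% of the 3782. The genes were thus chosen by their FPKM in the 10 hind wing libraries, and their hind wing values are given below as a description without a test. The 4 forewing libraries were not used in the choice.

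The wing of a butterfly grows inside the caterpillar as an imaginal disc, an epithelial sac in which the veins and the colour pattern are laid out during the last larval instar. After pupation the disc has everted, and cells of the epithelium become scale cells, each of which builds a cuticular scale and later fills it with pigment. Red and orange ommochromes appear first and black melanin last, so the early pupal wing still lies before the stages of scale maturation and pigmentation.

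The study measured polyadenylated RNA in 14 libraries, 2 for each of 7 groups. Whole hind wings came from the last larval instar, from pupae at 72 h after pupation, from pupae at 5 d (before pigment), and from the ommochrome and melanin stages, when the first red or orange and then the first black pigment showed. Red and black regions were cut from pupal forewings. The sample titles place these regions at the melanin stage and the treatment protocol at the ommochrome stage, so they are set beside both hind wing stages. Caterpillars were reared on a long-day cycle, the labels name no genotype, strain or sex, and they do not say whether the libraries of 1 group were made from different animals or from pooled wings. The p-values below therefore measure only the spread between libraries, which may be technical.

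The genes carry identifiers without names, and 0 of the 13876, members included, matched the reference gene table used here. Neither the functions of the genes nor the labelled tissue could be checked against markers. An identifier such as c24646_g1 gives a component of the assembly and a gene of that component. Of the 52 genes, 37 were alone in their component and 15 (28.8%) shared it with another gene, against 34.5% of all genes. Reads of such genes can be divided between similar sequences, and their values are less certain.

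Summed FPKM ranged from 482546 to 833658 per library. Read totals are not given, but low FPKM values fall on steps worth 1 fragment, and the steps gave a rough relative depth. Melanin hind wing replicate 1 stood at 0.463 of larval replicate 1 and the others between 1 and 2.35. That library also listed 3641 genes at 0, against 1931 to 2707 in the others. The 2 libraries of 72 h stood apart from each other more than those of any other group, as given below for these genes.

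In the larva the 52 genes had a median of 69.4 FPKM, with quartiles of 30.2 and 190.6, and at 72 h a median of 59.1 FPKM (quartiles 24.3 and 129). At 5 d the median was 5.96 FPKM (quartiles 1.6 and 15.8), at the ommochrome stage 4.28 (quartiles 1.36 and 11.8) and at the melanin stage 3.65 (quartiles 1.06 and 10.5). The drop between 72 h and 5 d is set by the rule. In bulk tissue, fewer cells of a type and less RNA per cell cannot be told apart. The 3730 genes that met the first 2 conditions and were not in the set had medians of 28.1, 16.5, 13.1, 15.2 and 17 FPKM at the same 5 stages. The medians of the set were above those of these genes at both early stages and below them at all later ones. The rule used the same stage means, so nothing is read from this difference.

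**Figure D1:**
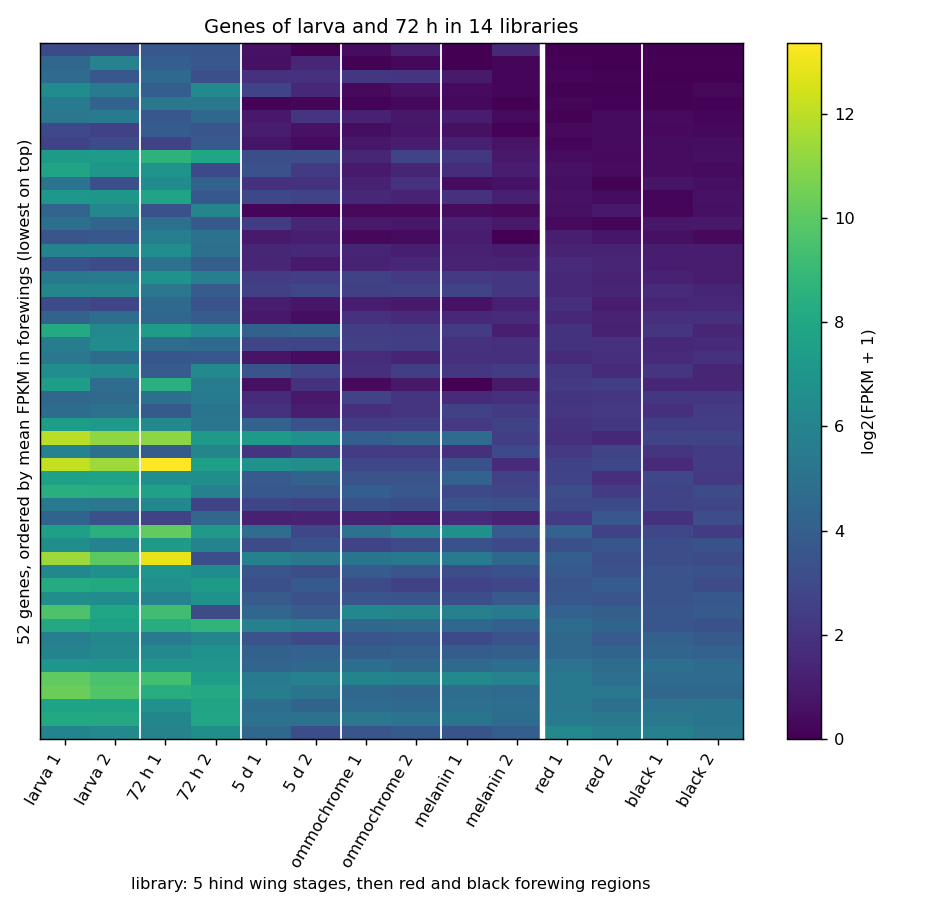
Levels of the 52 genes (rows, lowest forewing mean on top) in the 14 libraries (columns), as log2(FPKM + 1). Within most rows the 4 larval and 72 h columns are brighter than the 6 later hind wing columns and the 4 forewing columns. The bottom row, c24974_g3, is brighter in the forewings than in the later hind wings.

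How far the levels had come down differed widely. The lower early mean was 4.08 to 192.8 times the highest later mean, with a median of 7.07 times. It was at least 5 times in 39 genes, at least 10 times in 12, at least 20 times in 6 and at least 100 times in 2. Most of the genes were still measured after 5 d. Only 2 were under 1 FPKM in all 6 later hind wing libraries, and the mean was at least 5 FPKM in 29 genes at 5 d and in 21 at each of the ommochrome and melanin stages.

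The largest ratio of the means as deposited was that of c24646_g1, named after its values were seen. Its highest later mean was 0.16 FPKM, near 0. With 1 FPKM added to both means its ratio was 27.5 and not the largest in the set. Gene c24646_g1 was at 44.2 and 17.5 FPKM in the larva and at 38.3 and 38.9 at 72 h. Its 6 later hind wing values lay between 0 and 0.22 FPKM and its 4 forewing values between 0.07 and 0.14. The early and later libraries of this gene did not overlap, and it met the rule with any single hind wing library left out and under each of the 4 other scalings tried.

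The rule kept the larval and 72 h means less than 4-fold apart. The larval mean was the higher in 31 genes and the 72 h mean in 21, and in 31 genes they were less than 2-fold apart. No share over the 3782 genes was set beside these counts, so nothing is read from them. Among the later hind wing stages, 28 genes had their highest mean at 5 d, 13 when ommochrome appeared and 11 when melanin did. A stepwise order from 5 d through ommochrome to melanin was seen downward in 18 genes and upward in 9. Both 5 d libraries were above all 4 ommochrome and melanin libraries in 18 genes and below all of them in 6. Among the 3782 genes that met the first 2 conditions, both 5 d libraries were above all 4 in 8.99% and below all 4 in 35%. No such share was set beside the highest later stage or the stepwise order. As the rule used all of these libraries, nothing is read from these counts or from the difference.

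The 2 genes with the highest early level were c23894_g4 and c22809_g1. Gene c23894_g4 was at 4476 and 2716 FPKM in the larva, at 10479 and 187.3 at 72 h and at 107.8 and 97.1 at 5 d. It was at 6.34 and 6.05 FPKM at the ommochrome stage, at 9.3 and 2.08 at the melanin stage, at 5.29 and 6.52 in the red region and at 1.98 and 4.04 in the black region. All early values were above all later ones, and the 5 d values stood between the early and the pigment-stage values. The libraries of 72 h were 56-fold apart, which is wider than the distance from the lower of them to 5 d.

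Gene c22809_g1, which also had the second largest ratio of early to later means with 1 FPKM added to both, was at 2719 and 1029 FPKM in the larva and at 7833 and 8.22 at 72 h. It stood at 56.3 and 40.2 FPKM at 5 d, at 35.6 and 41.3 at the ommochrome stage and at 46.7 and 21.2 at the melanin stage. Red regions gave 15.1 and 8.71 FPKM, black regions 8.17 and 7.7. Its 72 h replicate 2 was below every later hind wing library, so its place in the set rests on 72 h replicate 1. Both larval values, like 72 h replicate 1, were above all later values.

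The largest such ratio belonged to c22435_g1, at 176.5 and 26 FPKM in the larva and 359.3 and 47.9 at 72 h. Its later hind wing values were 0.49 and 2.82 FPKM at 5 d, 0.27 and 0.9 at the ommochrome stage and 0 and 0.98 at the melanin stage. In the forewings its red regions gave 3.81 and 4.47 FPKM, its black regions 1.73 and 1.75. Replicates differed 7.5-fold at 72 h and nearly as much in the larva, yet all early values were above all later ones.

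**Figure D2:**
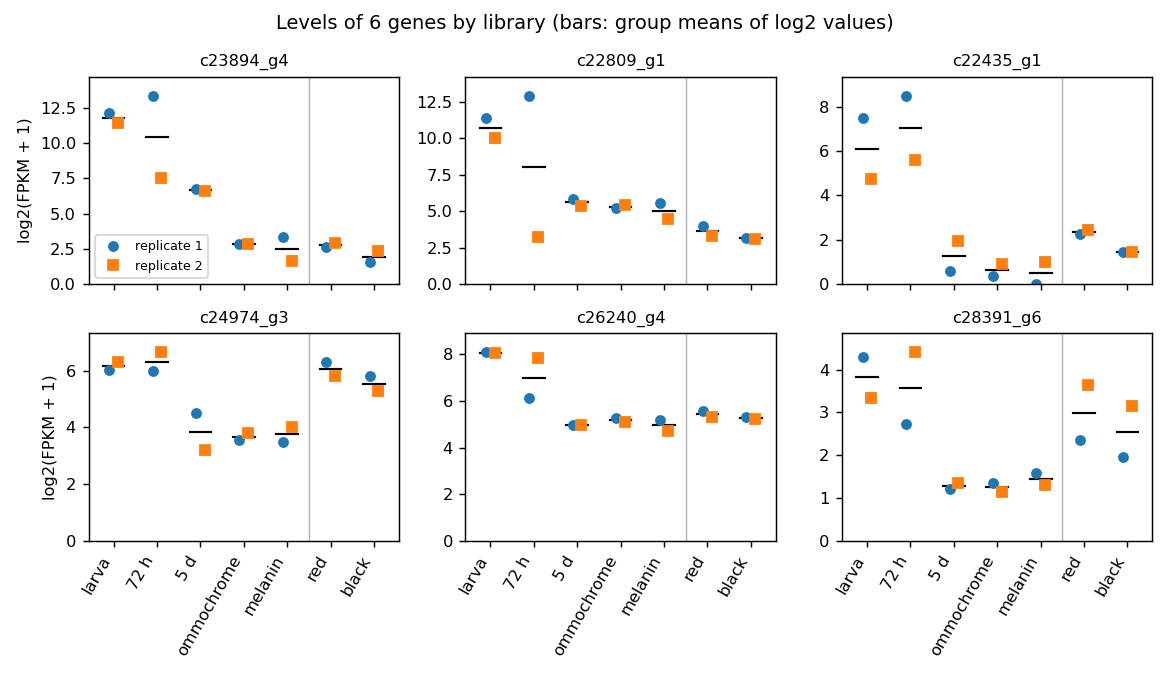
Levels of 6 genes in the 14 libraries, as log2(FPKM + 1), with the groups on the horizontal axis, circles for replicate 1, squares for replicate 2 and bars for the mean of the log2 values. The 72 h libraries of c23894_g4 and c22809_g1 lie far apart, and the forewing values of c24974_g3 lie above its later hind wing values.

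Replicates at 72 h lay further apart in this set than in the genes it was drawn from, in values that the rule itself used. Between the 72 h libraries the log2 difference had an SD of 2.31 over the 52 genes and 0.809 over the 3730 others. In the larva it was 0.808 against 0.4, and at the later hind wing stages 0.36 to 0.768 against 0.3 to 0.584. In the forewings it was slightly smaller in the set, at 0.435 against 0.453 in red and 0.322 against 0.366 in black. Replicate 1 of 72 h was at least 4 times replicate 2 in 10 of the 52 genes (19.2%), against 2.04% of the others. The reverse held in 4 genes (7.69%), against 2.06% of the others.

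The 10 genes with replicate 1 higher included the 2 most abundant ones. At 72 h they had 70.6 to 10479 FPKM in replicate 1 and 5.6 to 187.3 in replicate 2, and their median larval mean was 226 FPKM, against 64.6 in the 38 genes within 4-fold. Larval replicate 1 was above larval replicate 2 in 9 of these 10 genes and in 21 of the 38 within 4-fold. Melanin replicate 1 was above melanin replicate 2 in 8 of the 10 and in 24 of the 38. Across the 10780 genes tested, replicate differences at 72 h correlated at 0.0174 with those in the larva and at -0.0182 with those at the melanin stage. The 10 genes were picked by their 72 h replicates, and a shared cause was not tested. The 4 genes with replicate 2 higher had 9.25 to 14.7 FPKM in replicate 1 and 65.5 to 81.9 in replicate 2, and their median larval mean was 56.2 FPKM.

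**Figure D3:**
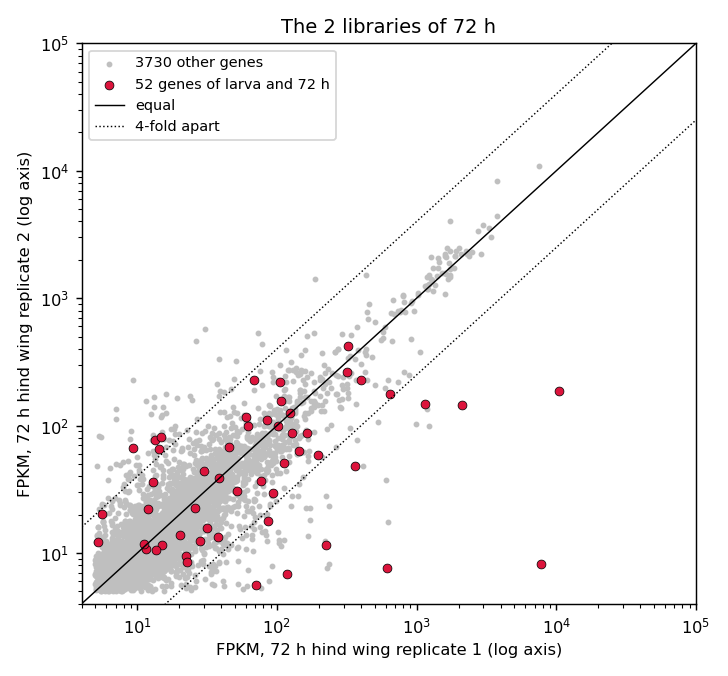
FPKM of 72 h replicate 2 against 72 h replicate 1, both on log axes, for the 52 genes (large points) and the 3730 other genes that met the first 2 conditions (small points), with lines for equal values and for 4-fold differences. Of the 52 genes, 10 lie at or beyond the lower 4-fold line and 4 at or beyond the upper one.

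In 47 of the 52 genes all early values were above all later hind wing values, as in 20.6% of the 3782 genes, an order that the rule on the same libraries nearly fixes. In the other 5 the lowest early value was always 72 h replicate 2, which was at 5.6 to 145.5 FPKM where replicate 1 was at 70.6 to 7833. With 72 h replicate 1 left out of the rule 47 genes qualified, 37 of them from the set, and with 72 h replicate 2 left out 80 did, 40 of them from the set. The genes that stayed with any single hind wing library left out numbered 21. Their median was 43.5 FPKM in the larva, 56.8 at 72 h, 2.92 at 5 d and, in turn, 2.43 and 2.17 at the 2 pigment stages.

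The summed level of the set shows how unequal its members were. The 52 genes held 2.26% and 1.49% of the summed FPKM in the larval libraries, 4% and 0.613% in the 72 h libraries and 0.0527% to 0.132% in each of the other 10. The 3 most abundant genes made up 59.8% and 50.7% of that sum in the larva. At 72 h they made up 76.1% of it in replicate 1 and 8.64% in replicate 2. The median of the 52 genes moved less, with 69.6 and 46.1 FPKM in the 2 libraries of 72 h.

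The number of genes that met the rule depended on the scaling between libraries. Over the 10780 genes that reached 1 FPKM in 2 or more libraries, the median level lay 0.50 log2 lower in the later than in the early hind wings as deposited (-0.50), and 0.08 lower (-0.08) after median-of-ratios scaling. With that scaling 31 genes met the rule, 25 of them from the 52. In all, 23 of the 52 met the rule under every one of the 4 other scalings, and 10 of these also stayed with any single hind wing library left out. Among the genes described here, c23894_g4, c22809_g1, c24974_g3, c26240_g4, c28391_g6 and c25316_g1 passed neither of these checks. Gene c22435_g1 passed only the check on scalings, and c18008_g1 and c9009_g1 passed only the check on left-out libraries.

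The limits of the rule cut through a continuum. The genes nearest to the limit of 4 for early over later means had a ratio of 4.08 inside and 3.99 outside the set, 13 members were below 5, and 46 other genes lay between 3 and 4. For the distance between the larval and 72 h means the nearest values were 3.76-fold inside and 4.1-fold outside. For the lowest of the 4 early libraries they were 5.11 and 4.93 FPKM. The 2 genes outside the set with the shortest distance to its median profile over the 7 group means, on the log2(FPKM + 1) scale, were c23984_g3 and c22369_g2, at distances of 1.79 and 1.87 against a median of 3.66 for the members. Their larval means were 6.47-fold and 3.3-fold above their 72 h means, and their lower early means were 3.8 and 2.85 times their highest later mean.

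The forewing regions, which the rule did not use, were low in most of these genes. The 52 genes had a median of 2.95 FPKM in the red and 2.78 in the black region, with quartiles of 0.645 and 11 FPKM in red and of 0.526 and 8.58 in black. The 3730 other genes that met the first 2 conditions had medians of 15.4 FPKM in the red and 12.9 in the black region. All 4 forewing libraries were under 1 FPKM in 14 genes of the set and at least 5 FPKM in 16, and 22 genes lay between. No share over the 3730 genes was set beside these 3 counts. Gene c18008_g1, named after its values were seen, was listed at 0 in all 4 and was at 7.1 and 7.18 FPKM in the larva and 11.6 and 10.8 at 72 h.

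Of the 52 genes, 46 (88.5%) had a forewing mean at or below 25% of both early means. Among all 3782 genes that met the first 2 conditions 5.21% did, and among the 3730 outside the set 4.05%. The early means enter both this count and the rule, so no test was made. The count was 46 in the red and 46 in the black region alone. Over both regions it depended on the scaling, with 38 under median-of-ratios scaling and 45 under equal totals.

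The other 6 genes kept 26.9% to 79.8% of the lower early mean in the forewings, and 3 of them were near the limit of the rule, with an early mean less than 5 times the highest later one, as were 13 of all 52. The gene with the highest forewing level was c24974_g3. Its values were 64.7 and 77.4 FPKM in the larva, 61.8 and 99.6 at 72 h, 21.6 and 8.19 at 5 d, 10.7 and 12.8 at the ommochrome stage and 10.2 and 15.1 at the melanin stage. The red regions gave 78.4 and 55.7 FPKM and the black regions 54.9 and 37.8. All 4 forewing values, with a mean of 56.7 ± 16.7 FPKM (SD, n = 4), were above all 6 later hind wing values, and red replicate 1 was within the range of the early hind wings. It lay 2.08 log2 above the higher of the ommochrome and melanin means, on the log2(FPKM + 1) scale, the largest such difference in the set.

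The component of c24974_g3 holds 3 genes, and the other 2, named after their values were seen, were also higher in the forewings than in the pigment-stage hind wings. Gene c24974_g1 was at 101.6 and 138.5 FPKM in the larva and 81.4 and 75.7 at 72 h. Its mean was 22.1 ± 4.38 FPKM (SD, n = 4) over the ommochrome and melanin hind wings and 75.7 ± 21.3 (SD, n = 4) over the forewings. Gene c24974_g2 was at 29.5 and 21.9 FPKM in the larva and 35.2 and 31.5 at 72 h, with 3.62 ± 3.57 and 19.3 ± 5.74 FPKM (SD, n = 4) over the same hind wings and forewings. Both missed the set only by the ratio of early to later means, which was 3.07 and 3.9. In all 3 genes every forewing library was above every ommochrome and melanin hind wing library. Gene c24974_g2 differed from the other two in its red replicate 1, at 11.4 FPKM just under the 11.7 FPKM of 5 d replicate 1, and in a black mean above its red mean. As the 3 share a component, they are not independent measurements.

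Gene c26240_g4 had the second highest forewing level. It was at 272.6 and 263.5 FPKM in the larva, 68.5 and 227.1 at 72 h and 25.3 to 37.6 in the 6 later hind wing libraries. The red regions gave 46.4 and 39.2 FPKM and the black regions 39.1 and 36. Of these forewing values, 3 were above all later hind wing values and black replicate 2 was among them, and all were below every larval and 72 h value.

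Gene c28391_g6 had the second largest difference of forewing over pigment-stage hind wing, 1.47 log2. It was low throughout, at 18.8 and 9.07 FPKM in the larva, 5.62 and 20.2 at 72 h and 1.21 to 1.98 in the 6 later hind wing libraries. The red regions gave 4.13 and 11.4 FPKM and the black regions 2.87 and 7.84. All forewing values were above all later hind wing values, and larval replicate 2 and 72 h replicate 1 were within the forewing range.

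Over the set as a whole, forewings and pigment-stage hind wings were close. The median difference of forewing minus ommochrome and melanin hind wing means was -0.20 log2 over the 52 genes and -0.19 over all 10780 genes tested, on the log2(FPKM + 1) scale. The forewing mean was the higher in 18 genes and the lower in 34. All 4 forewing libraries were below all 4 ommochrome and melanin libraries in 10 genes (19.2%), against 24.6% of all genes tested. They were above them in 7 genes (13.5%), against 11.9%. Neither share stood far from its background, and the hind wing side of both was used by the rule. Where the wings did not overlap, the differences ran from 0.33 to 2.13 log2 upward and from -0.48 to -2.01 downward. Of the 10 genes lower in the forewings, 6 were among the 20 with a larval mean of at least 100 FPKM. The 7 genes higher in the forewings also included genes at that larval level, namely c22435_g1, c25449_g1 and c26865_g2. The larval mean was used by the rule and no share over all genes was set beside it, so nothing is read from this. The level in the shallow melanin replicate 1 enters these values, and its part in them was not tested.

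**Figure D4:**
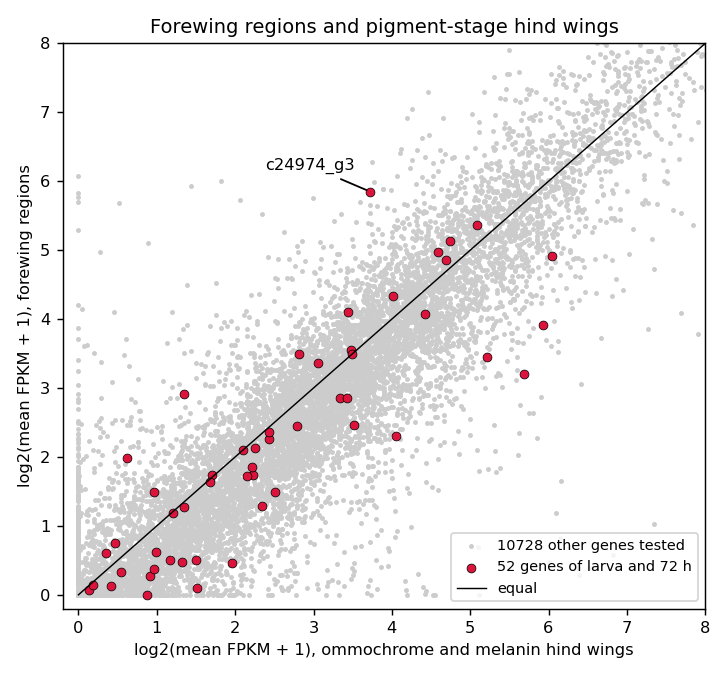
Mean level in the 4 forewing libraries against the mean level in the 4 hind wing libraries of the ommochrome and melanin stages, both as log2(FPKM + 1), for the 52 genes (large points) and the other genes tested (small points, those above 8 on either axis not shown), with a line of equal values. The 52 genes scatter around the line, and c24974_g3 lies 2.13 log2 above it.

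The red and black regions were then compared, to ask which genes differ between parts of a wing with different colours. The rule did not use these 4 libraries, but the spread in the test was estimated over all 7 groups, and so also from hind wing libraries that the rule used. Colour and position in the wing cannot be told apart in it. No gene (0 of 52) of the set was called by limma at an adjusted p under 0.05, where 0.751% of the 10780 genes tested were called. At an unadjusted p under 0.05 there were 2 genes of the set (3.85%), against 4.15% of all genes. All 52 passed the filter of 1 FPKM in 2 libraries through their larval and 72 h levels, and 37 had at least 1 FPKM in at least 2 forewing libraries. The other 15 could hardly be called on this scale. Of the 37 genes, 0 were called and 2 (5.4%) passed an unadjusted p of 0.05, against 0.931% and 4.93% of the 8696 genes of the table at that forewing level.

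The median difference of black minus red was -0.12 log2 in the set and -0.15 over all genes tested, and the 52 differences ran from -1.07 to 1.06 log2. Both black libraries were below both red ones in 20 genes (38.5%), against 35.2% of all genes tested, and above them in 7 (13.5%), against 7.01%. In the 37 genes the median was -0.18 log2, against -0.19 over the 8696 genes at that forewing level. Black was below red without overlap in 15 of them (40.5%), against 39.8%, and above it in 4 (10.8%), against 6.41%. With median-of-ratios scaling the median of the set was 0.02 log2 and with quantile normalization 0.01, so its sign depended on the scaling.

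The member with the smallest p was c25316_g1. The red regions gave 25.4 and 18.5 FPKM, the black regions 10.4 and 9.22, and the 4 hind wing libraries of the pigment stages 16.3 to 23.1. It shares its component with 2 other genes. Red and black values did not overlap, and the black region was below both pigment-stage hind wings as well. The difference of black minus red was -1.07 log2 (SE 0.255) and its adjusted p by limma was 0.161, so it was not called, though all of its 95% interval, -1.64 to -0.51, lay below 0. Its adjusted p ranged from 0.105 to 1 over the alternatives. Earlier it was at 263.9 and 198.7 FPKM in the larva, 320.8 and 421.8 at 72 h and 56.3 and 46 at 5 d.

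In the other direction the smallest p was that of c9009_g1, with 0.25 and 0.16 FPKM in red regions and 0.83 and 0.9 in black ones. The values did not overlap but all were under 1 FPKM, against 12.4 to 29.3 FPKM in the larva and at 72 h. The gene passed the filter only through hind wing libraries, so no test of it is given.

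For many of these genes the test could not show a difference of moderate size. The widely spaced 72 h libraries enter the spread, and the SE of c22809_g1 was 2.24 log2, with a 95% interval of -5.48 to 4.52. In 19 of the 52 genes the interval lay within 1 log2 on either side of 0, and in the others it reached 1 log2 or more on at least 1 side. Some of the 19 were below 1 FPKM in both regions, such as c18008_g1 at 0. The 1 FPKM added before taking logs holds their differences near 0, so their intervals do not bound a change. No such count was made for the 37 genes. With both 72 h libraries left out of the fit, 0 of the 52 were called and 3 passed an unadjusted p of 0.05. These counts compare with 0.881% called and 5.74% passing among all genes of that fit. In the forewing libraries alone no gene of the table was called. There 11 of the 52 (21.2%) passed an unadjusted p of 0.05, against 9.82% of all genes. The counts of both fits include members that passed the filter only through hind wing libraries. They were not made for the 37 genes at 1 FPKM in at least 2 forewing libraries, so nothing is read from them.

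**Figure D5:**
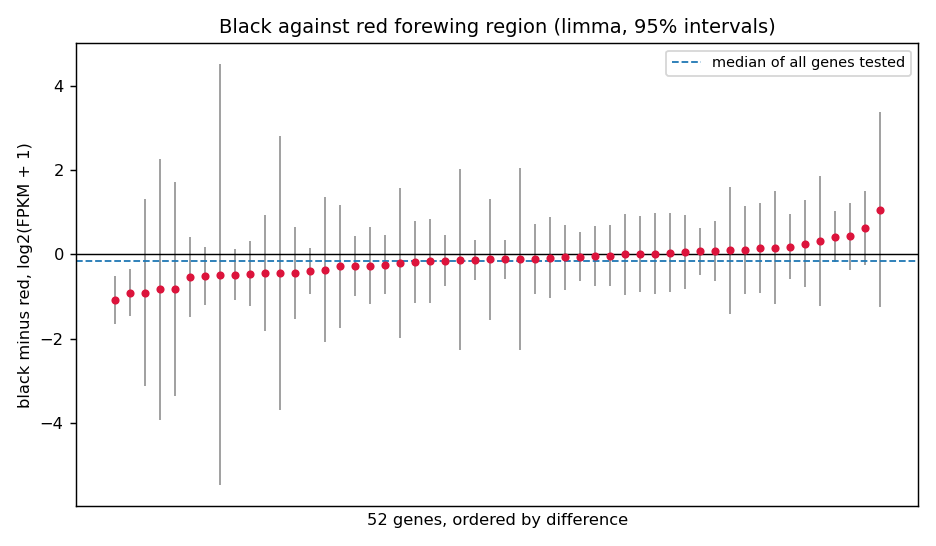
Difference of black minus red forewing region for the 52 genes in order of size, as log2(FPKM + 1), with 95% intervals from limma and a dashed line at the median of all genes tested. The points run from -1.07 to 1.06, and the widest interval is that of c22809_g1, from -5.48 to 4.52.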

How the data were processed

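The authors deposited 1 table of FPKM with a column for each library. Per the submitters' processing notes Bowtie aligned the reads, and the series title speaks of a de novo transcriptome. Assembler, quantification program, filters and versions: not given in the sources used here. Since each value is a share of its library, a few very abundant genes lower all others.

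The rule was applied to the FPKM as deposited with pandas 2.3.3 and NumPy 2.4.6 under Python 3.11.15. The members and the rules for named genes were chosen with earlier results of these data known. Named were the 2 members highest early, with the largest ratio of early to later means (FPKM + 1), highest in forewings and highest in forewings over pigment-stage hind wings, and the member with the smallest p in each direction.

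Black and red regions were compared on log2(FPKM + 1), which understates changes of low genes, with limma 3.58.1 in R 4.3.3: 7 group means over 14 libraries, a trend in the spread prior, two-sided tests and Benjamini-Hochberg adjustment over 10780 genes. The fit and the depth estimate were tested on simulated data. With independent simulated libraries the fit recovered 16% of changes of 1 log2, 74% of 2 log2 and 94% of 3 log2. In the deposited values the depth estimate agreed within 0.1 log2 in 53 of 91 pairs of libraries. The labels do not say whether replicate numbers pair libraries of different groups, and the main fit took all libraries as unpaired. Figures were drawn with matplotlib 3.10.9.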

Additional observations from a re-analysis of the deposited data

How the results depend on the processing

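The 52 genes became 31 with median-of-ratios scaling, 33 when totals were made equal after dropping each library's 10 most abundant genes (1 a member), 98 with a fold of 3 and 21 with a fold of 8. Without a hind wing library they were 47 to 80, the latter without 72 h replicate 2. Quantile normalization, equal totals and minima of 2 or 10 FPKM kept the number within 1.5 times (36 to 66). The cause of these differences was not tested.

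A forewing mean of at least 5 FPKM was reached by 19 genes, by 10 of the 37 alone in their component and by 6 of the 21 that stayed with any hind wing library left out. A forewing mean at or below 25% of both early means was found in 46 of 52, in 19 of those 21, and in 71 of the 80 genes chosen without 72 h replicate 2. Selections of genes with libraries left out were added after the data were seen. Leaving out a forewing library gave 19 to 20 and 46 to 48. For the same members, the other scalings gave 19 to 23 at 5 FPKM or more. The count at or below 25% was 38 with median-of-ratios scaling and 40 without the most abundant genes. It was 42 with quantile normalization and 45 with equal totals.

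The median of forewing minus pigment-stage hind wing, -0.195 log2, kept its sign. It was -0.0945 with median-of-ratios scaling, -0.022 with quantile normalization, -0.342 with equal totals, -0.325 without the most abundant genes, -0.386 and -0.0661 with pseudocounts of 0.1 and 5, and -0.233 to -0.171 without a forewing library. It was -0.218 in genes alone in their component, -0.0481 in the 21 genes, and -0.0706, -0.245 and -0.221 when genes were chosen without 72 h replicate 1, 72 h replicate 2 or melanin replicate 1.

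Between black and red, limma called 0 members in each of the 28 alternatives (smallest adjusted p 0.105). The median of members was 0.0171 with median-of-ratios scaling and 0.0103 with quantile normalization, against -0.117. Over all genes 81 were called, 36 with a pseudocount of 0.1, 53 at a minimum of 5 FPKM, 18 to 36 without a forewing library and 0 in forewings alone. With the replicate number as a block, 0 members were called over all libraries and 0 in forewings alone (71 and 0 of all genes). Deviations of red and black libraries of one number correlated at 0.431 across genes, the only 1 of 21 pairs of groups to exceed 0.1. Whether red and black libraries of one number came from the same wings is not given in the labels and was not tested. The main fit took them as unpaired.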
